A study of Mus musculus with 20 samples.

Results

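Long-chain fatty acids enter liver cells from the blood and must be joined to coenzyme A before they can be stored or burned. The genes described here carry out these steps, and they comprise Cd36, Lpl, Vldlr, Slc27a1, Slc27a2, Slc27a4, Slc27a5, Acsl1, Acsl4 and Acsl5. They were found by their symbols among the 22298 genes listed for each liver, and all 10 were present once, had a count in every library and passed the filter on low counts. The libraries came from 20 male Lepr db/db mice, in which loss of leptin signalling through its receptor leads to obesity and diabetes, and all 4 groups carry this mutation. At 5 weeks of age each mouse received an AAV8 vector by tail vein, which delivered either a non-targeting shRNA or 4 joined shRNAs against Pparg. Vehicle (CMC-Na) or benzbromarone (BBR), a drug that lowers urate by blocking the kidney transporter URAT1, was then given by gavage at 25 mg/kg once daily for 4 weeks, and livers were taken after a 6 h fast. The groups of 5 mice were Vec (control vector and vehicle), Vec+BBR (control vector and BBR), shRNA (knockdown vector and vehicle) and shRNA+BBR (knockdown vector and BBR). Every group had received a viral vector, so no mouse without AAV8 serves as a reference, and because whole liver was sequenced, fewer cells of a type and less RNA per cell cannot be told apart.

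Lpl encodes lipoprotein lipase, which frees fatty acids from triglyceride in circulating lipoproteins, and Vldlr encodes a receptor that takes up such lipoproteins. Cd36 encodes a membrane receptor that promotes fatty acid uptake. The Slc27a genes encode the fatty acid transport proteins (FATPs), which are at the same time acyl-CoA synthetases, and the Acsl genes encode the long-chain acyl-CoA synthetases that trap fatty acids inside the cell. In healthy adult liver Slc27a2, Slc27a5, Acsl1 and Acsl5 are abundant, whereas Lpl is largely shut off after birth, and Cd36 and Lpl are textbook targets of PPARγ in adipose tissue.

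The knockdown rested on 4 hairpins whose 21-base sense strands are shown, as printed in the study's supplementary methods, because they define the perturbation.
shRNA1: gcatctccaccttattattct
shRNA2: ggatgtctcacaatgccatca
shRNA3: ggaaagacaacggacaaatca
shRNA4: ggaagccctttggtgacttta
Each was found without a mismatch in Pparg, in 6, 5, 4 and 3 of its 7 GENCODE M21 transcripts for shRNA1, shRNA2, shRNA3 and shRNA4. The longest unbroken stretch shared with any transcript of the 10 genes was 11 bases, between shRNA1 and Slc27a1, and 9 bases for each of the other hairpins. Only the sense strand was searched for in these transcripts, without mismatches.

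For the genes that were higher with BBR in Vec mice and have an entry in the promoter table, the 250 bases before the transcription start are shown from RefSeq (GRCm38.p6), 5′ to 3′ on the strand of the gene. Capitals mark the PPAR half-site AGGTCA on either strand (TGACCT on the other). The windows are chr5:17835897-17836146 on the minus strand for Cd36, chr2:29802384-29802633 on the plus strand for Slc27a4 and chrX:142390536-142390785 on the minus strand for Acsl4. The Cd36 window precedes a start inside the GENCODE M21 gene, which spans 17781690 to 17888801. The bases before the outermost Cd36 start were not examined.
Cd36: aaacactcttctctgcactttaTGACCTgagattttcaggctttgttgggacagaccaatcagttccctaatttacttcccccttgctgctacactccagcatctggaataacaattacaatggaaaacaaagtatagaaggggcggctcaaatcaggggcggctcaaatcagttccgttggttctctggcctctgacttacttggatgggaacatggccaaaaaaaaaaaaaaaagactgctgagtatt
Slc27a4: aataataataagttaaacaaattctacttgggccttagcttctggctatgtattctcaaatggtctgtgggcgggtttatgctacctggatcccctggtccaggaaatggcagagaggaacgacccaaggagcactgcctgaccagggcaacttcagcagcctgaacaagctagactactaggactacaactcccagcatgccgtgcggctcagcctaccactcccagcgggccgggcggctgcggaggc
Acsl4: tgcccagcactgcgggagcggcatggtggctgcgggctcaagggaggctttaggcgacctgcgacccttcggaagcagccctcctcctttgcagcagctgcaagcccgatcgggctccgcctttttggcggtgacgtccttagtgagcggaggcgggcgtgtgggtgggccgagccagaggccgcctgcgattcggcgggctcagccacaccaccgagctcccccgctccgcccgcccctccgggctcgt
The Cd36 window held AGGTCA in its reverse form, starting 228 bases before the start site, and the windows of Slc27a4 and Acsl4 held none. Of the 12 windows of the 8 genes with an entry, 2 held AGGTCA, those of Cd36 and Slc27a2, against 14.0% of all 32851 windows. The full repeat AGGTCANAGGTCA, which contains the half-site, was in 0 of the 12 and in 0.0335% of all windows. It is so rare that 0 of 12 does not set these windows apart. The closest imperfect copy matched 10 of its 12 fixed bases in Cd36, 9 in Acsl4 and 7 in Slc27a4. How often other windows reach these values was not worked out. A match is only a match of letters, and its absence says nothing of a factor's binding to an imperfect copy or elsewhere.

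Total counts per library ran from 17432904 to 25024099, the 10 most abundant genes took 23.0% to 29.7% of the counts, and mitochondrial genes took 9.14% to 16.2%, with the highest share in shRNA+BBR. Levels are given as CPM (counts per 1000000, scaled by the TMM method), on which scale the detection floor of 3 counts lay between 0.12 and 0.172 in a library. Tests are edgeR's quasi-likelihood tests in 1 fit of all 20 libraries, with Benjamini-Hochberg adjustment over the 12342 genes tested and a threshold of 0.05. In this fit Pparg, the targeted gene, ran from 16.4 to 35.9 CPM in Vec, 28.0 to 38.3 in Vec+BBR, 3.24 to 7.31 in shRNA and 7.19 to 21.8 in shRNA+BBR. It was lower with knockdown in vehicle-treated mice (log2 fold change −2.12, adjusted p = 4.47e-05) and under BBR (−1.20, adjusted p = 0.00843), and within shRNA mice it was higher with BBR (1.28, adjusted p = 0.00773). The hepatocyte markers Alb, Apoa1, Ttr, Hnf4a, Tat and Asgr1 summed to 82393 to 136453 CPM in the 20 libraries.

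The 10 genes spanned a wide range of levels. FPKM values, which the authors scaled for transcript length and library size, allow genes to be compared with each other. In Vec livers the mean was 619 ± 38.3 FPKM for Slc27a2 (SD, n = 5, as for all FPKM values here), 529 ± 99.4 for Slc27a5, 203 ± 55.3 for Acsl5 and 169 ± 49.1 for Acsl1. Cd36 followed with 77.4 ± 15.8 FPKM and Slc27a4 with 13.1 ± 3.07 FPKM. At the lower end, Acsl4 had 2.86 ± 0.388, Slc27a1 2.18 ± 0.653, Vldlr 2.09 ± 1.09 and Lpl 1.28 ± 0.381 FPKM. The liver-enriched transporters thus led, and the lipase and its lipoprotein receptor were lowest. Among neighbours in this order, the ranges overlapped for Slc27a2 and Slc27a5, for Acsl5 and Acsl1, and for Acsl4, Slc27a1, Vldlr and Lpl, while the steps from Slc27a5 to Acsl5, from Acsl1 to Cd36, from Cd36 to Slc27a4 and from Slc27a4 to Acsl4 were larger than the spread. These last steps, apart from that between Slc27a5 and Acsl5 in shRNA+BBR, kept ranges that did not overlap in all 4 groups. The transcript length behind a gene's FPKM, worked out from its count and FPKM, differed between libraries for Vldlr (4061 to 7351 bases) and Acsl5 (2079 to 3125 bases), so FPKM were not used to compare groups for any test.

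**Figure D1:**
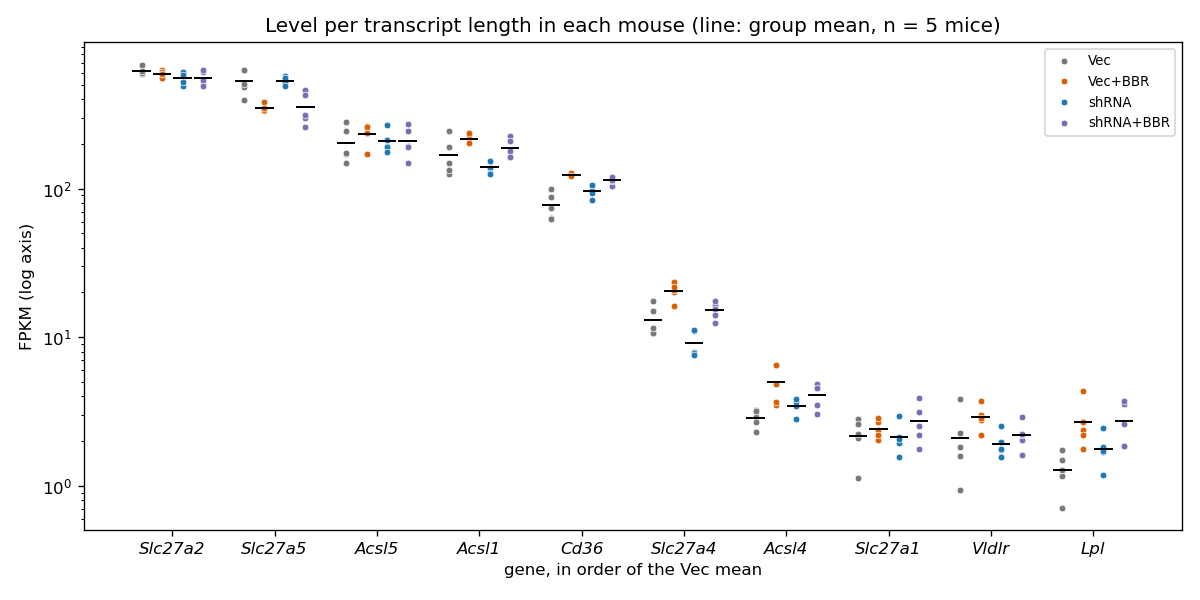
FPKM (log axis) of the 10 genes in each of the 20 livers, ordered by the Vec mean; points are mice, coloured by group, and lines are group means. Slc27a2 and Slc27a5 lead with Vec means of 619 and 529 FPKM, and Acsl4, Slc27a1, Vldlr and Lpl lie at the bottom, between 1.28 and 2.86 FPKM.

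Within the FATP family, Slc27a2 and Slc27a5 together made up nearly all of the summed FPKM. Slc27a5 took 45.2% ± 4.23 of the 6-gene FATP sum in Vec and 48.6% ± 2.71 in shRNA, against 36.4% ± 2.31 in Vec+BBR and 37.7% ± 3.96 in shRNA+BBR (SD, n = 5 each). The share of Slc27a2 was 53.5% ± 3.91 in Vec, 61.2% ± 2.55 in Vec+BBR, 50.4% ± 2.77 in shRNA and 60.3% ± 3.86 in shRNA+BBR. Shares of 1 sum depend on each other, and the mean level of Slc27a2 itself was not higher with BBR. It was 619 FPKM in Vec, 589 in Vec+BBR, 555 in shRNA and 554 in shRNA+BBR. Slc27a4 held 1.16% ± 0.384 of the sum in Vec and 2.14% ± 0.291 in Vec+BBR. In the ACSL family the sum was divided between Acsl5, with 53.8% ± 3.32, and Acsl1, with 44.6% ± 3.53 in Vec, and Acsl4 held 0.796% ± 0.217. These shares are descriptions and were not tested.

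The first comparison asked how BBR changed these genes when PPARγ was intact. In Vec livers BBR was accompanied by higher Cd36, Lpl, Slc27a4 and Acsl4 and by lower Slc27a5, so that 5 of the 10 genes passed the threshold, against 15.5% of all genes tested, and 3 passed without Vec replicate 1. Folds were moderate, from 1.42-fold for Slc27a4 to 1.73-fold for Lpl, and Slc27a5 was 1.68-fold lower. The median log2 fold change of the 10 genes was 0.32, and that of all genes tested was −0.005. In 4 of the 10 genes (Cd36, Lpl, Slc27a5 and Acsl4) the groups did not overlap, against 8.94% of all genes.

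Cd36 was at 186, 197, 257.5, 205 and 279 CPM in the 5 Vec mice and at 356, 303, 334, 328 and 331 CPM in the 5 Vec+BBR mice. Every Vec+BBR liver was above every Vec liver, and the Vec+BBR livers varied little. The log2 fold change was 0.55 (standard error 0.099, adjusted p = 0.00111). Lpl was at 5.16, 3.34, 6.52, 5.02 and 7.25 CPM in Vec, from 52 to 154 counts, and at 7.65, 13.6, 9.32, 8.12 and 8.94 CPM in Vec+BBR, from 179 to 304 counts. The groups were apart by a narrow margin, between Vec replicate 5 and Vec+BBR replicate 1. Its change of 0.79 on the log2 scale (standard error 0.25, adjusted p = 0.0359) was close to the threshold, with adjusted p-values from 0.0139 to 0.121 over the 26 alternatives, and leaving out 1 mouse at a time ended the call in 6 of 20 cases, those of Vec replicates 1, 2 or 4 or Vec+BBR replicates 2, 3 or 5. Vldlr, at 6.56, 10.2, 10.6, 13.9 and 11.3 CPM in Vec and 12.3, 13.7, 15.8, 15.7 and 12.3 CPM in Vec+BBR, did not pass (log2 fold change 0.41, 95% interval 0.08 to 0.73, adjusted p = 0.0794). The groups overlapped through Vec replicate 4, and without that mouse the log2 fold change was 0.53 with an adjusted p of 0.0292.

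Slc27a4 encodes FATP4, a transporter and acyl-CoA synthetase of broad tissue distribution. It was at 46.5, 49.7, 75.8, 46.8 and 62.5 CPM in Vec and at 69.1, 84.0, 81.2, 78.9 and 87.3 CPM in Vec+BBR. Of the Vec+BBR mice, 4 lay above every Vec mouse, and the overlap came from Vec replicate 3 and Vec+BBR replicate 1. The log2 fold change was 0.51 (standard error 0.14, adjusted p = 0.0162), and the call was lost without Vec replicate 1 (adjusted p = 0.0591). Slc27a5 encodes FATP5, the liver-specific family member that also activates bile acids. It was at 1159, 1594, 940.3, 1342 and 1132 CPM in Vec and at 785, 718, 739, 682.5 and 754 CPM in Vec+BBR, with all treated livers below all controls (log2 fold change −0.75, standard error 0.13, adjusted p = 0.00102). Slc27a2 (FATP2), the other abundant hepatic transporter, ran from 1286 to 1640 CPM in Vec and from 1066 to 1369 CPM in Vec+BBR and did not pass (log2 fold change −0.19, 95% interval −0.39 to 0.01, adjusted p = 0.178). Slc27a1 (FATP1), best known from muscle and fat, was at 3.54 to 6.88 CPM in Vec and 5.04 to 7.31 CPM in Vec+BBR (log2 fold change 0.07, 95% interval −0.34 to 0.49, adjusted p = 0.847).

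Acsl4 encodes the synthetase that prefers arachidonic acid. It was at 15.3, 13.0, 17.1, 15.9 and 13.7 CPM in Vec and at 18.0, 28.2, 18.0, 30.1 and 23.5 CPM in Vec+BBR, with no overlap (log2 fold change 0.65, standard error 0.15, adjusted p = 0.00637). The lowest Vec+BBR livers were close to the highest Vec liver, and Vec+BBR replicates 2 and 4 stood highest. Acsl1, an abundant long-chain synthetase of hepatocytes, was at 524, 657, 791, 519 and 964 CPM in Vec and at 820.1, 784, 792, 735 and 911 CPM in Vec+BBR, within the range of the controls (log2 fold change 0.23, 95% interval −0.07 to 0.52, adjusted p = 0.298). Without Vec replicate 5, the highest control, it passed (log2 fold change 0.38, adjusted p = 0.0437). Acsl5, which encodes a synthetase of mitochondria and endoplasmic reticulum, ran from 323 to 642 CPM in Vec and from 419 to 507.5 CPM in Vec+BBR (log2 fold change 0.01, 95% interval −0.32 to 0.33, adjusted p = 0.984).

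Vec replicates 3 and 5 held the 2 highest values of the Vec group in 5 of the 10 genes, namely Cd36, Lpl, Slc27a4, Acsl1 and Acsl5. The same pair was highest in Pparg, at 35.9 and 32.1 CPM against 16.4 to 20.1 CPM in the other Vec mice. In each of these 5 genes the coefficient of variation was larger in Vec than in Vec+BBR. For example, it was 27.4% for Acsl1 and 27.1% for Acsl5 in Vec, against 8.04% and 7.04% in Vec+BBR. The wider spread in Vec was not particular to these 5 genes. It was also seen in Vldlr, Slc27a1, Slc27a2 and Slc27a5, and only Acsl4 varied less in Vec than in Vec+BBR.

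**Figure D2:**
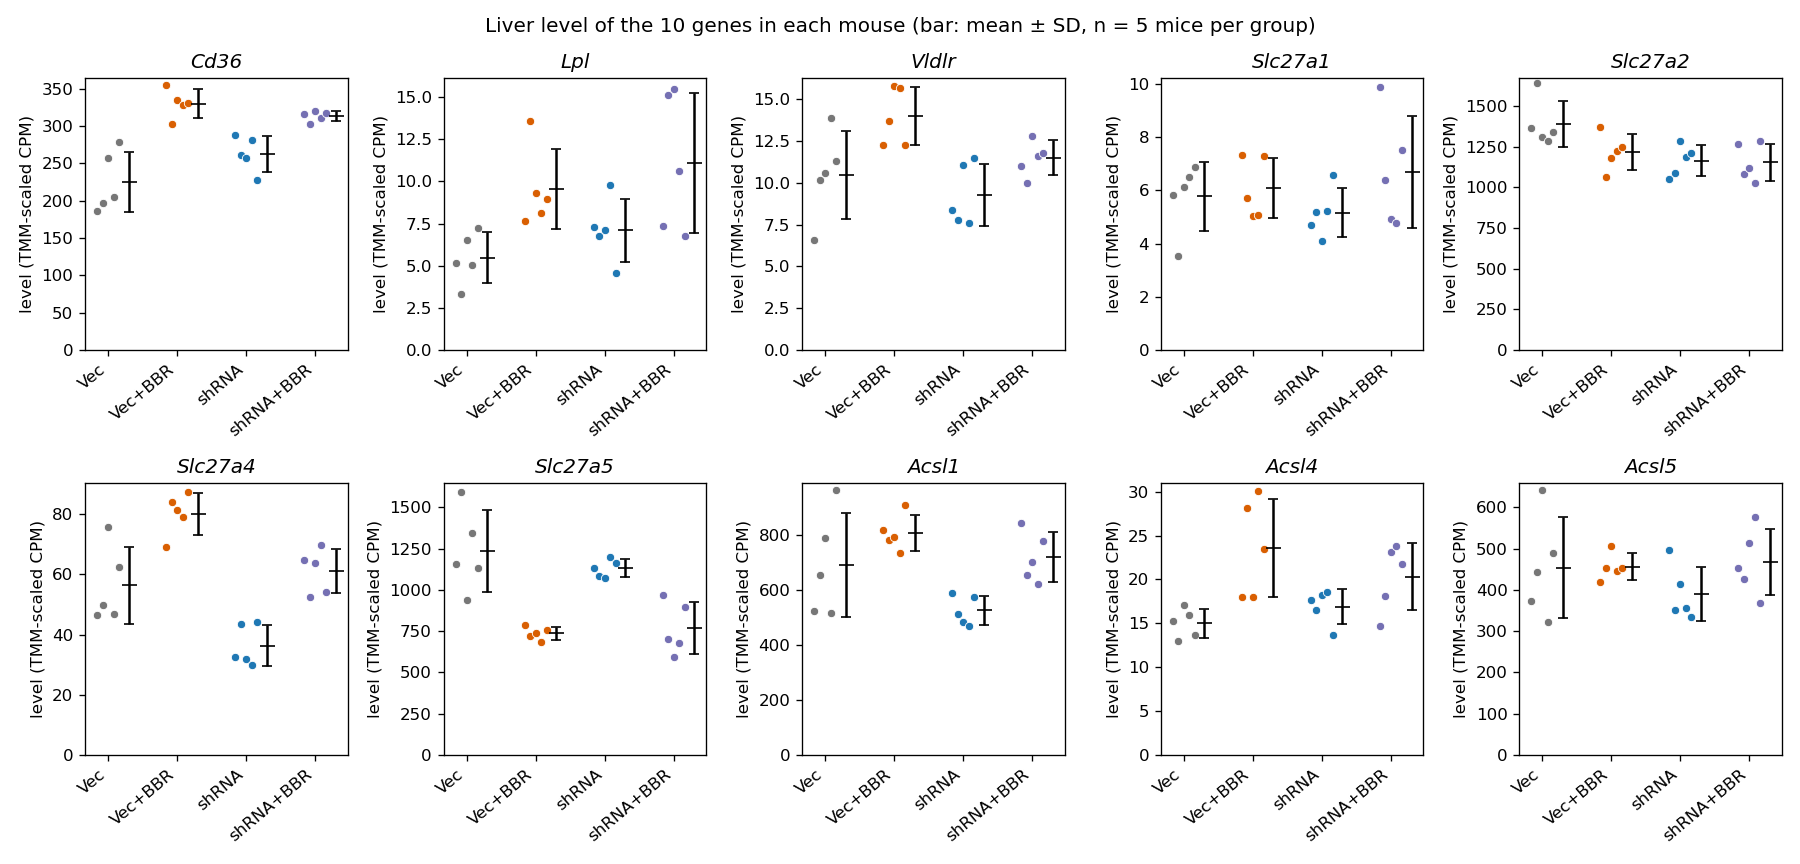
Level of each gene in each mouse (TMM-scaled CPM, axis from 0), with 5 points per group and the mean ± SD beside them. Cd36, Lpl and Acsl4 are higher and Slc27a5 is lower in all Vec+BBR livers than in all Vec livers, and Slc27a4 is lower in all shRNA livers (29.9 to 44.1 CPM) than in all Vec livers (46.5 to 75.8 CPM).

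Cd36, Lpl, Vldlr and Acsl4 are also expressed outside hepatocytes, and markers of other liver cell types moved with BBR in the same mice. The 8 endothelial markers summed to 128 to 166 CPM in Vec and 157 to 207 CPM in Vec+BBR, and 4 of the 8 passed as higher (Pecam1, Cdh5, Lyve1 and Vwf). The 7 stellate cell markers summed to 151 to 282 CPM in Vec and 301 to 336 CPM in Vec+BBR, and 3 of the 7 passed as higher (Col1a1, Col3a1 and Pdgfrb). The 10 macrophage markers summed to 129 to 334 CPM in Vec and 186 to 294 CPM in Vec+BBR, with 3 higher (Cd68, Trem2 and Gpnmb) and 2 lower (Marco and Timd4). Of the 6 hepatocyte markers 2 were lower, and the sums were 107198 to 136453 CPM in Vec and 82393 to 116982 CPM in Vec+BBR. The 5 adipocyte markers summed to 0.0507 to 0.981 CPM in Vec and 1.16 to 6.31 CPM in Vec+BBR, with a median count of 0 over the 20 libraries for Adipoq, Lep and Plin1. Only 1 of the 5 was tested, Cfd, and it passed as higher (adjusted p = 0.00428), and no fold is given because some Vec libraries had no count of it. The 4 skeletal muscle markers, of which 0 were tested, summed to 0.251 to 0.471 CPM in Vec. In Vec+BBR they summed to 0.134 to 10.5 CPM, with a median of 0.357 CPM. Of all genes tested 15.5% passed in this comparison. The part of these markers in the changes of the fatty acid genes was not tested.

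The same drug in mice with Pparg knocked down gave the second comparison. In shRNA livers BBR was accompanied by higher Slc27a4 and Acsl1 and lower Slc27a5, and 3 of the 10 genes passed against 15.7% of all genes tested. The median log2 fold change of the 10 genes was 0.28, and that of all genes 0.008. Slc27a4 was 1.68-fold and Acsl1 1.37-fold higher, and Slc27a5 was 1.47-fold lower. For 4 of the 10 genes, Cd36 in addition to these 3, the groups were apart, against 11.4% of all genes.

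Slc27a4 was at 32.4, 43.4, 31.8, 29.9 and 44.1 CPM in shRNA and at 64.9, 52.5, 63.9, 69.6 and 54.2 CPM in shRNA+BBR. All treated livers were above all untreated ones (log2 fold change 0.75, standard error 0.14, adjusted p = 0.0043). Slc27a5 was at 1133, 1085, 1070.1, 1201 and 1165 CPM in shRNA and at 969.5, 702, 596, 677 and 898 CPM in shRNA+BBR. The untreated livers lay close together and every treated one was lower (log2 fold change −0.56, standard error 0.13, adjusted p = 0.011). Acsl1 was at 589, 515, 484, 469.9 and 576 CPM in shRNA and at 846, 655, 703.5, 622 and 778 CPM in shRNA+BBR, again without overlap. Its log2 fold change was 0.45 (standard error 0.14, adjusted p = 0.0366), but it no longer passed in 8 of 20 fits with 1 mouse omitted, those of shRNA replicates 2 to 5 or shRNA+BBR replicates 1, 2, 3 or 5, with adjusted p-values over all alternatives from 0.0149 to 0.0826.

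Cd36 was at 288, 261, 257, 281.5 and 227 CPM in shRNA and at 316, 303, 319.9, 311 and 318 CPM in shRNA+BBR. The groups did not overlap, but the difference of 0.25 (log2, 95% interval 0.05 to 0.46) did not pass in the fit of all groups (adjusted p = 0.0818), and it passed when only the shRNA and shRNA+BBR libraries were fitted (adjusted p = 0.0409). Lpl was at 7.27, 6.75, 7.09, 9.81 and 4.58 CPM in shRNA and at 7.37, 15.1, 15.5, 10.6 and 6.75 CPM in shRNA+BBR. The treated livers were split, with replicates 2, 3 and 4 above all untreated livers and replicates 1 and 5 among them (log2 fold change 0.64, 95% interval 0.13 to 1.15, adjusted p = 0.0754). The same 3 libraries had the higher shares of counts in the 10 most abundant genes (28.9%, 29.0% and 29.7%, against 24.9% and 24.6% in replicates 1 and 5) and in mitochondrial genes (16.2%, 14.6% and 12.7%, against 10.2% and 11.9%), and they had the lower values of Slc27a5. The part of these library differences in the values of Lpl and Slc27a5 was not tested. Without shRNA+BBR replicate 1 or 5 the adjusted p was 0.0416 or 0.0304. Acsl4 ran from 13.7 to 18.6 CPM in shRNA and from 14.7 to 23.8 CPM in shRNA+BBR (log2 fold change 0.26, 95% interval −0.05 to 0.57, adjusted p = 0.23). Vldlr ran from 7.62 to 11.5 and from 9.99 to 12.8 CPM (0.30, −0.03 to 0.63, adjusted p = 0.184), and Slc27a1 from 4.11 to 6.58 and from 4.79 to 9.89 CPM (0.38, −0.04 to 0.79, adjusted p = 0.193). Acsl5 (0.26, −0.06 to 0.58, adjusted p = 0.243) and Slc27a2 (−0.01, −0.21 to 0.18, adjusted p = 0.945) did not pass either. In these mice 4 of 7 stellate markers passed as higher, their sums running from 187 to 248 CPM in shRNA and from 249 to 379 CPM in shRNA+BBR, and of 8 endothelial markers 2 were higher (Lyve1 and Eng) and 2 lower (Kdr and Stab2). Of 10 macrophage markers 3 were higher (Cd68, Trem2 and Gpnmb), with sums from 174 to 232 CPM in shRNA and from 199 to 286 CPM in shRNA+BBR. The adipocyte marker Cfd passed as higher (adjusted p = 0.00226), and the 5 adipocyte markers summed to 0 to 0.274 CPM in shRNA and 0.867 to 5.45 CPM in shRNA+BBR. Of 6 hepatocyte markers 0 passed in edgeR, with 0 at an unadjusted p-value under 0.05, against 4102 of all 12342 genes. Their part in these changes was not tested.

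The effect of BBR was then compared between the 2 vector backgrounds by an interaction term. Of the 10 genes 0 passed in edgeR, against 0.146% of all genes tested. An unadjusted p-value under 0.05 was found for 2281 of all 12342 genes and for 1 of the 10. That gene was Cd36, whose change with BBR was smaller in shRNA than in Vec mice by 0.30 on the log2 scale (unadjusted p = 0.0434, adjusted p = 0.257). By DESeq2, likewise 0 of the 10 genes passed. Slc27a4 rose by 0.51 in Vec and 0.75 in shRNA mice, a difference of 0.24 (95% interval −0.17 to 0.64, adjusted p = 0.512). For Slc27a5 the difference was 0.19 (−0.20 to 0.57, adjusted p = 0.594), for Acsl4 −0.39 (−0.83 to 0.05, adjusted p = 0.32), for Acsl1 0.23 (−0.19 to 0.64, adjusted p = 0.552) and for Lpl −0.15 (−0.88 to 0.57, adjusted p = 0.84). The intervals are wide beside the changes themselves, so genes that passed in Vec mice alone were not shown to respond differently in shRNA mice. Within shRNA mice Pparg itself was higher with BBR (log2 fold change 1.28, edgeR adjusted p = 0.00773). It was at 7.19 to 21.8 CPM in shRNA+BBR, against 3.24 to 7.31 CPM in shRNA and 16.4 to 35.9 CPM in Vec. The part of this rise in the BBR changes of the 10 genes was not tested.

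**Figure D3:**
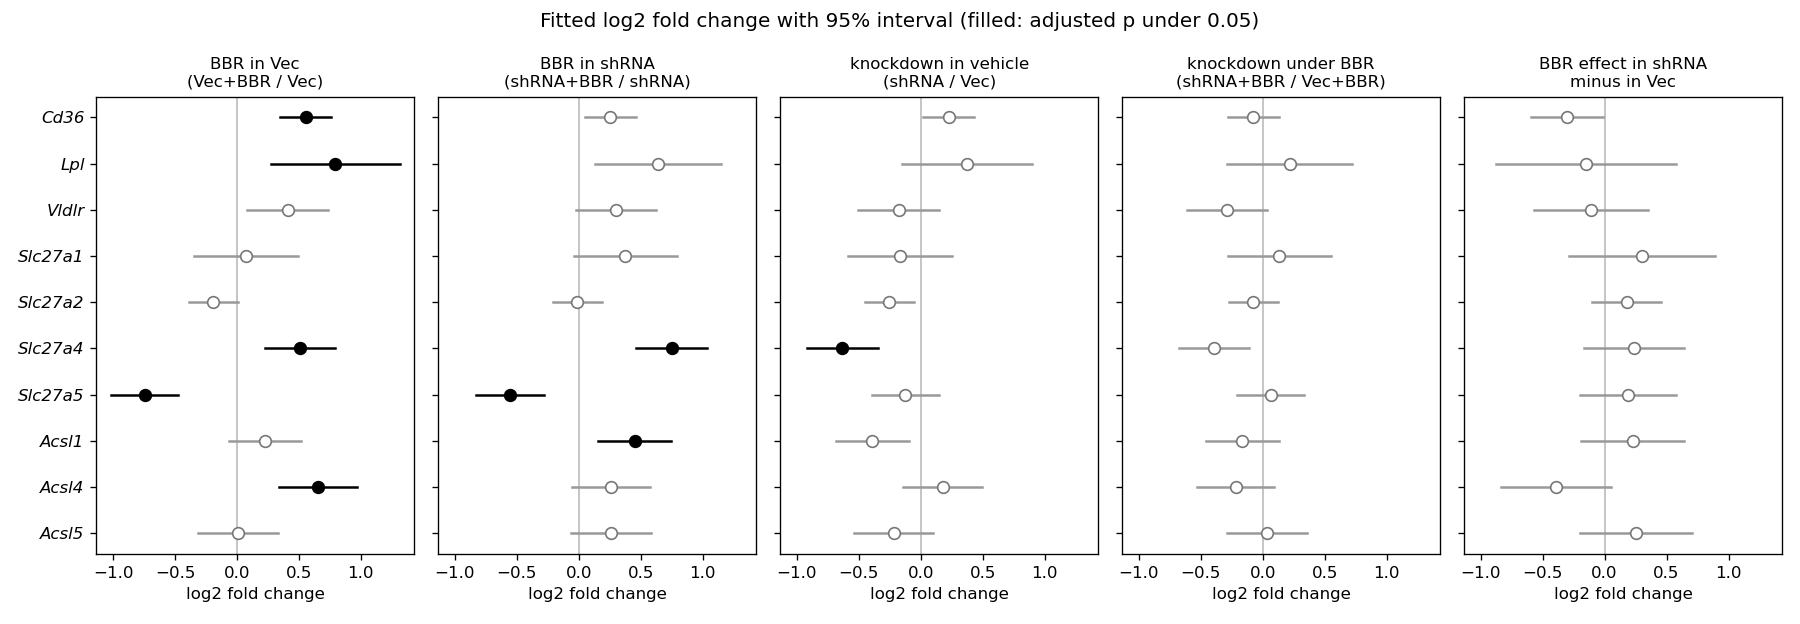
Fitted log2 fold change of the 10 genes in the 5 comparisons, with 95% intervals as lines; filled points have an adjusted p under 0.05. Slc27a4 passes in both BBR comparisons (0.51 and 0.75) and with knockdown in vehicle-treated mice (−0.63), and no gene passes in the last 2 panels.

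The effect of the knockdown itself was examined with and without the drug. In vehicle-treated mice Slc27a4 was 1.55-fold lower with knockdown, and it was the only one of the 10 genes to pass, against 13.2% of all genes tested. Under BBR 0 of the 10 genes passed in edgeR, against 8.13% of all genes, and 0 by DESeq2. An unadjusted edgeR p-value under 0.05 was found for 1 of the 10 (Slc27a4) and for 3046 of all 12342 genes. The median log2 fold changes of the 10 genes were −0.17 in vehicle-treated and −0.08 in BBR-treated mice, and those of all genes −0.009 and −0.004.

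The 5 shRNA livers, at 29.9 to 44.1 CPM of Slc27a4, all lay below the 5 Vec livers, at 46.5 to 75.8 CPM (log2 fold change −0.63, standard error 0.14, adjusted p = 0.00461). It was the only one of the 10 genes whose groups did not overlap, against 8.96% of all genes. Under BBR the same gene was at 69.1 to 87.3 CPM with the control vector and at 52.5 to 69.6 CPM with knockdown, overlapping in 1 mouse of each group (−0.39, 95% interval −0.68 to −0.11, adjusted p = 0.0781), and the difference passed when only these 2 groups were fitted (adjusted p = 0.0282). The number of genes without overlap under BBR was 0 of 10, against 8.48% of all genes. Acsl1 ran from 519 to 964 CPM in Vec and from 469.9 to 589 CPM in shRNA (−0.39, 95% interval −0.68 to −0.10, adjusted p = 0.0711), and it passed by DESeq2 (adjusted p = 0.0476) and without Vec replicate 1 (adjusted p = 0.0362) or 4 (adjusted p = 0.0206), the low Vec mice. Slc27a2 had a change of −0.25 (−0.45 to −0.06, adjusted p = 0.0786) and passed by DESeq2 (adjusted p = 0.0379). Without Vec replicate 1, 4 or 5 the count of genes that passed was 2 instead of 1.

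Cd36, often named as a PPARγ target, was not lower with knockdown. It ran from 186 to 279 CPM in Vec and from 227 to 288 CPM in shRNA, a difference of 0.22 on the log2 scale (95% interval 0.02 to 0.43, adjusted p = 0.137) that passed as an increase without Vec replicate 5 (0.31, adjusted p = 0.0314). Under BBR the difference was −0.08 (−0.28 to 0.13, adjusted p = 0.683). Lpl likewise had positive values that did not pass, 0.37 (−0.15 to 0.90, adjusted p = 0.351) in vehicle-treated and 0.22 (−0.28 to 0.72, adjusted p = 0.62) in BBR-treated mice. Slc27a5, Slc27a1, Vldlr, Acsl4 and Acsl5 had log2 fold changes between −0.22 and 0.18 in vehicle-treated mice and between −0.29 and 0.14 under BBR, where the values of Acsl1 and Slc27a2 were −0.17 and −0.07. In vehicle-treated mice 3 of 8 endothelial markers were higher with knockdown (Kdr, Stab2 and Clec4g) and the endothelial sums ran from 160 to 200 CPM in shRNA against 128 to 166 CPM in Vec. In the same comparison 2 of 10 macrophage markers were lower, Cd68 (−0.72, adjusted p = 0.0274) and Gpnmb (−1.37, adjusted p = 0.0441), as was 1 of 7 stellate markers, Col1a1 (−1.12, adjusted p = 0.0303). Their part in the values of Cd36 and Lpl was not tested.

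The relatives of PPARγ were examined because they share ligands and DNA motifs with it. Ppara ran from 25.1 to 112 CPM in Vec, 33.2 to 81.7 in Vec+BBR, 44.6 to 68.3 in shRNA and 14.1 to 52.2 in shRNA+BBR. Ppard stayed between 2.82 and 5.63 CPM in all 20 livers. Neither passed the threshold in any of the 5 comparisons.

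The remaining members of the transporter and synthetase families gave a mixed picture. Of 16 such genes 9 were tested. Among all genes tested 15.5% passed with BBR in Vec mice and 15.7% with BBR in shRNA mice. With knockdown 13.2% passed in vehicle-treated and 8.13% in BBR-treated mice. With BBR in Vec mice 2 of the 9 passed as higher, Acsl3 (0.69, adjusted p = 0.0112), which encodes a synthetase of lipid droplets and endoplasmic reticulum, and Acsf2 (0.30, adjusted p = 0.042). Another 2 passed as lower, Acsm1 (−0.70, adjusted p = 0.00124), a medium-chain synthetase gene, and Acsm2, which was at 0.321 to 0.752 CPM in Vec and near or under the detection floor in Vec+BBR, at 0.0446 to 0.214 CPM. With BBR in shRNA mice Acsf2 (0.45, adjusted p = 0.00754) and Acsf3 (0.41, adjusted p = 0.0181) were higher and Acsm5 was lower (−0.50, adjusted p = 0.0179). Acsf3, which encodes the mitochondrial malonyl-CoA synthetase, was lower with knockdown both in vehicle-treated (−0.78, adjusted p = 9.23e-05) and in BBR-treated mice (−0.51, adjusted p = 0.00669), and Acsf2 was lower in vehicle-treated mice (−0.36, adjusted p = 0.0177). The median log2 fold change of the 9 tested genes was 0.15 with BBR in Vec and −0.19 with knockdown in vehicle-treated mice. In the interaction 0 of the 9 passed in edgeR, with 2 at an unadjusted p-value under 0.05, against 2281 of all 12342 genes.

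Among 24 genes for the lipase's partners and inhibitors, lipoprotein receptors and intracellular binding proteins, 23 were tested. With BBR in Vec mice 3 were higher and 5 lower, while 15.5% of all genes tested passed in either direction. The largest increases were those of Fabp4 and Fabp5. Fabp4, which encodes a fatty acid binding protein of adipocytes and macrophages, went from 9.06 ± 2.85 to 29.3 ± 7.14 CPM (SD, n = 5, log2 fold change 1.69, adjusted p = 0.000167). Fabp5, encoding its close relative, went from 3.78 ± 3.16 to 9.89 ± 1.75 CPM (SD, n = 5, 1.38, adjusted p = 0.0119), and Cav1, the gene of the caveolar coat protein, passed as higher too (0.75, adjusted p = 0.0188). The lower genes were Lipc, encoding hepatic lipase (−0.65, adjusted p = 0.00133), Scarb1, encoding the HDL receptor (−0.56, adjusted p = 0.0136), Lmf1, needed for lipase folding (−0.37, adjusted p = 0.00877), Apoa5, an activator of lipoprotein lipase (−0.37, adjusted p = 0.0327), and Angptl4, an inhibitor of the enzyme (−0.30, adjusted p = 0.0423). In Vec mice Lpl was thus higher with BBR, while Angptl4, the gene of its inhibitor, and Lmf1, that of its maturation factor, were lower. With BBR in shRNA mice Angptl4 (0.24, adjusted p = 0.0956) and Lmf1 (0.09, adjusted p = 0.505) had positive values that did not pass. Their interaction values were 0.53 (adjusted p = 0.0942) and 0.46 (adjusted p = 0.102). A link of these genes with Lpl was not tested. The median log2 fold change of the 23 genes with BBR in Vec mice was −0.05.

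With BBR in shRNA mice 5 of the 23 were higher and 4 lower, while 15.7% of all genes tested passed in either direction. The higher genes were all for intracellular binding proteins, namely Fabp1 (1.25, adjusted p = 0.0197), Fabp2 (0.62, adjusted p = 0.0441), Fabp4 (0.91, adjusted p = 0.0154), Fabp5 (1.46, adjusted p = 0.0143) and Dbi (0.92, adjusted p = 0.0152), the acyl-CoA binding protein gene. Lipc (−0.57, adjusted p = 0.00625), Scarb1 (−0.69, adjusted p = 0.00702), Lrp1 (−0.74, adjusted p = 0.0131) and Sel1l (−0.33, adjusted p = 0.0304) were lower. Knockdown in vehicle-treated mice left Gpihbp1, which anchors the lipase on capillaries, higher (0.49, adjusted p = 0.0122), and Fabp1 (−1.02, adjusted p = 0.0485), Angptl4 (−0.53, adjusted p = 0.001) and Lmf1 (−0.39, adjusted p = 0.00609) lower. Under BBR 0 of the 23 passed for knockdown in edgeR, with 7 at an unadjusted p-value under 0.05, against 3046 of all 12342 genes. In the interaction 0 passed in edgeR, with 6 at an unadjusted p-value under 0.05, against 2281 of all genes. The medians of the 23 genes were 0.15 with BBR in shRNA mice, −0.09 with knockdown in vehicle-treated mice and 0.03 with knockdown under BBR.

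**Figure D4:**
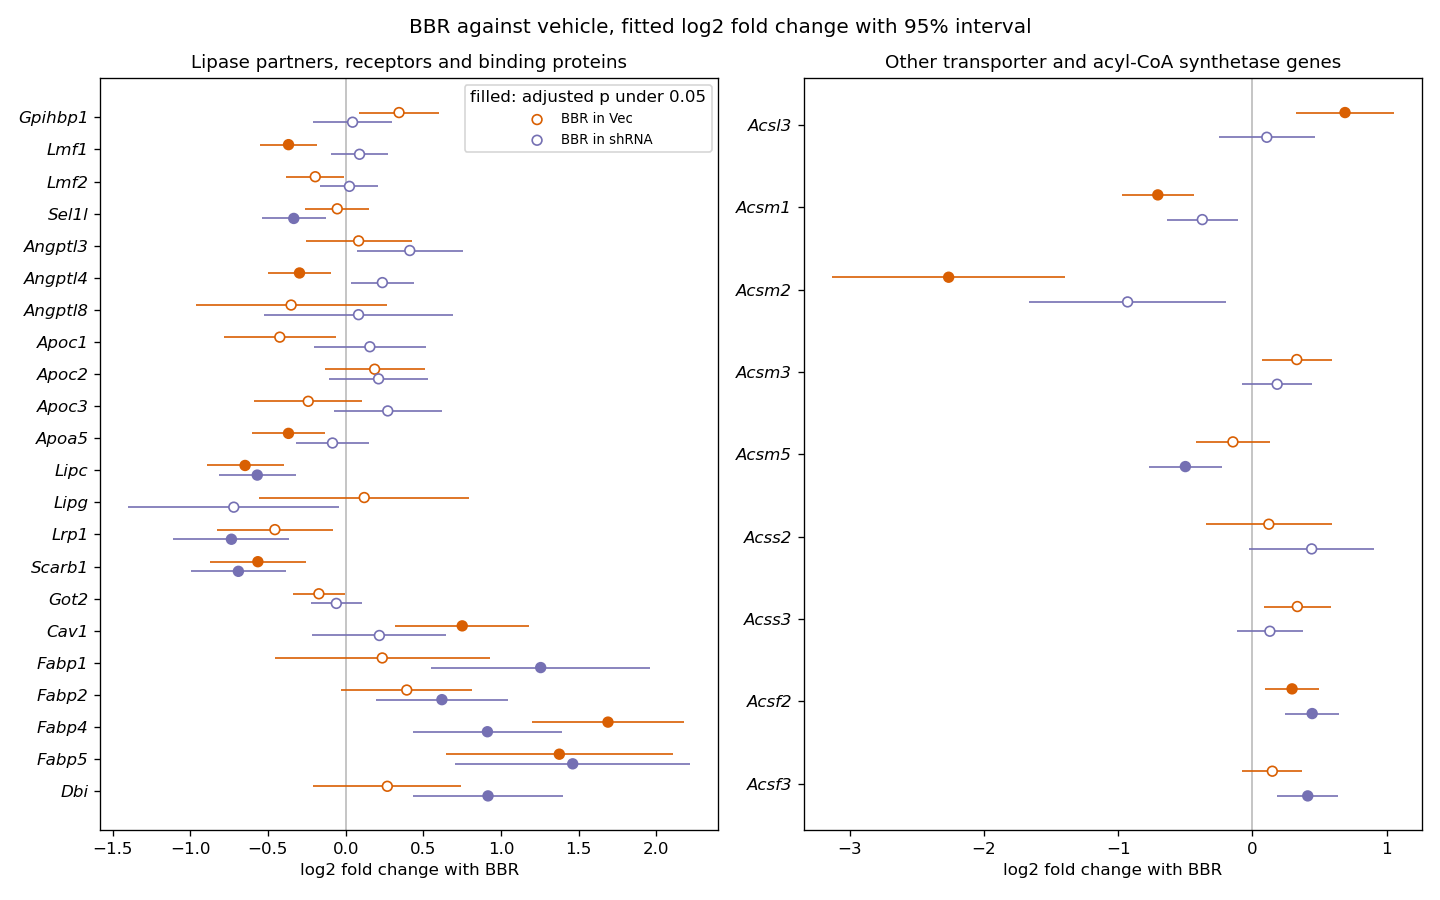
Fitted log2 fold change with BBR in Vec (orange) and in shRNA mice (violet), with 95% intervals, for partner genes (left) and relatives (right); filled points have an adjusted p under 0.05. Fabp4 (1.69 and 0.91) and Fabp5 (1.38 and 1.46) lie to the right and Lipc (−0.65 and −0.57) and Scarb1 (−0.56 and −0.69) to the left in both.

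Over the 20 livers, the genes whose log2 CPM ran most like each of the 10 genes were listed by Pearson's r. The 4 groups are mixed in these values, so a shared difference between groups raises r, and r is given as a description. For Cd36 they were Ghitm (0.931), Mal2 (0.927) and Tmem64 (0.926), and for Slc27a4 they included Vegfb (0.951) and Serinc2 (0.948). Slc27a5 was closest to Gpld1 (0.963), Mthfd1 (0.955) and Nfix (0.954), and Slc27a2 to Dpys (0.867), Bphl (0.849) and Gcdh (0.845). Acsl1 was closest to Hsd17b4 (0.912), an enzyme of peroxisomal β-oxidation, Vnn1 (0.885) and Clstn3 (0.884), whereas Acsl5 was closest to the lipogenic genes Slc25a1 (0.888), Elovl6 (0.887) and Acss2 (0.884). Acsl4 ran with Elovl7 (0.89), Klf6 (0.84) and Cnot6 (0.839), and Lpl with Zeb2 (0.856), Mndal (0.845) and Cav2 (0.842). Vldlr ran with Pfkl (0.831), Abhd2 (0.825) and Acad12 (0.815), and Slc27a1, the lowest of these values, with Lrp3 (0.739), Kif3c (0.726) and Pmpcb (0.723).

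The 10 genes lie on 6 chromosomes of GRCm38 (GENCODE M21), and the positions of those that passed a test are given with their identifiers. Cd36 (ENSMUSG00000002944) lies on chromosome 5 from 17781690 to 17888801 and Slc27a4 (ENSMUSG00000059316) on chromosome 2 from 29802634 to 29817522. Lpl (ENSMUSG00000015568) and Acsl1 (ENSMUSG00000018796) are both on chromosome 8, from 68880491 to 68907448 and from 46471037 to 46536051. Slc27a5 (ENSMUSG00000030382) is on chromosome 7 from 12988346 to 12998192, and Acsl4 (ENSMUSG00000031278) on chromosome X from 142317993 to 142390535. Exons of Slc27a2, Acsl1 and Acsl5 overlap exons of a gene on the other strand (Gm26697, Gm45244 and Zdhhc6), and the sources used here do not say whether counting used strand, so reads in the overlap cannot be told apart.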

How the data were processed

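Liver RNA from 20 mice in 4 groups of 5 was enriched for poly(A) RNA, made into libraries with an NEBNext kit and sequenced on a NovaSeq6000. Groups came from the labels of the libraries. Per the file headers, the authors deposited for each of 22298 genes an expected count, in which a read that matches several genes is divided between them, and an FPKM value, scaled by the authors for transcript length and library size. The build is mm10 per the submitters' processing notes, and the aligner, the counter and its use of strand are not given in the sources used here. Of the identifiers, 43 are not in GENCODE M21.

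Expected counts were rounded to whole numbers and used for all tests. In R 4.3.3, edgeR 4.0.16 was run with filterByExpr (minimum count 10, minimum total 15), which kept 12342 genes, TMM factors (0.873 to 1.14) and a mean for each group, and significance was set at 0.05 after Benjamini-Hochberg adjustment of quasi-likelihood p-values. The 5 comparisons were BBR in Vec, BBR in shRNA, knockdown in vehicle-treated mice, knockdown under BBR and the interaction. On simulated counts for BBR in Vec (12248 genes), 86.9% of 2-fold and 94% of 4-fold changes were recovered, and 7 unchanged genes were called. Changes below 2-fold, as all those of the 10 genes were, were not simulated, so their recovery is not known. Alternatives were DESeq2 1.42.0, RLE factors, other filters, a fit of only the 2 groups compared, a replicate block, an unadjusted threshold and leaving out each mouse. FPKM served to compare levels between genes and to describe each gene's share of its family by group, and were not tested.

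Total counts were 17432904 to 25024099 per library (median 21409860), and a count of 3 was the detection floor, which covers counting error only. No 2 libraries of a group were duplicates (lowest chi-square per gene 15.1 over 40 pairs). Replicate numbers were not taken as pairing mice. Each library is taken to be 1 mouse. The labels give replicate numbers and do not say that each is a separate mouse.

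Named genes were the 10 members, Pparg, Ppara and Ppard, genes of the relatives and partner lists that passed a threshold, and for each member the 3 tested genes with the highest Pearson's r of log2 CPM. A few genes chosen in this way are not named here. Cell type markers were fixed lists. The members and lists were chosen with earlier results of these data known.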

Additional observations from a re-analysis of the deposited data

Results flagged for a closer look

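Among the 40 sets of 5 mice formed by the 10 genes and 4 groups, 2 had a mouse that stood apart from the others by Dixon's criterion (gap over range above 0.71), and chance alone flags about 1 set in 20. Vec+BBR replicate 2 had 13.6 CPM of Lpl against 9.32 CPM in the next highest mouse and 7.65 CPM in the lowest. Without this mouse the log2 fold change of Lpl with BBR in Vec mice was 0.62 with an adjusted p of 0.121 (edgeR). Vec replicate 2 had 1639.6 CPM of Slc27a2 against 1366 CPM in the next highest mouse and 1286 CPM in the lowest. Slc27a2 did not pass with BBR in Vec mice under any of the 26 alternatives, with adjusted p-values from 0.0833 to 0.423 in edgeR or DESeq2.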

How the results depend on the processing

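Of the 9 changes of single genes that passed, 6 kept their call under every alternative run and 3 lost it under some, namely Lpl with BBR in Vec mice, Slc27a4 with BBR in Vec mice and Acsl1 with BBR in shRNA mice; 0 changed direction. Among changes that did not pass, 8 passed under some alternative that kept the adjustment. When a p-value of 0.05 was used without adjustment, the numbers of all genes were 3730 for BBR in Vec, 3510 for knockdown in vehicle-treated mice, 3046 for knockdown under BBR, 4102 for BBR in shRNA and 2281 for the interaction, instead of 1908, 1628, 1004, 1932 and 18, and the numbers of the 10 genes were 4, 1, 5 and 1 for the last 4 comparisons, instead of 1, 0, 3 and 0. A fit of only the 2 groups compared gave 1178 genes for BBR in Vec and 1 of the 10 genes for knockdown under BBR. DESeq2 gave 3 of the 10 genes for knockdown in vehicle-treated mice and 338 genes for the interaction. The cause of these shifts was not tested.

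With each mouse left out in turn, all genes called ran from 1237 to 2395 for BBR in Vec (below 1908 by over 1.5 times without Vec replicates 1 and 2 or Vec+BBR replicate 4, at 1248, 1237 and 1256), from 1015 to 2284 for knockdown in vehicle-treated mice (1015 without shRNA replicate 4), and from 538 to 1217 for knockdown under BBR (610, 667, 634 and 642 without Vec+BBR replicates 2 to 5 and 538 without shRNA+BBR replicate 2). For BBR in shRNA they ran from 661 to 2527 (1178, 1281, 1159 and 1175 without shRNA replicates 1, 2, 4 and 5, and 1140, 661 and 1195 without shRNA+BBR replicates 2, 3 and 4), and for the interaction from 5 without Vec+BBR replicate 4 to 122 without Vec replicate 4 (7 and 32 without Vec replicates 1 and 5, 97, 11, 8 and 7 without Vec+BBR replicates 1, 2, 3 and 5, 11 and 6 without shRNA replicates 3 and 4, and 9 and 55 without shRNA+BBR replicates 2 and 5). Of the 10 genes, 3 to 6 were called for BBR in Vec, 1 to 2 for knockdown in vehicle-treated mice, 2 to 3 for BBR in shRNA and 0 for the others.

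Signs changed only in values near 0 that did not pass. The log2 fold changes over these fits ran for BBR in Vec from −0.058 to 0.144 (Slc27a1) and −0.0943 to 0.155 (Acsl5), for knockdown under BBR from −0.0462 to 0.24 (Slc27a1), −0.0351 to 0.154 (Slc27a5) and −0.0513 to 0.108 (Acsl5), for BBR in shRNA from −0.0529 to 0.0291 (Slc27a2, and 0.0071 when 10 counts were required in every library), and for the interaction from −0.29 to 0.0243 (Lpl) and −0.23 to 0.0391 (Vldlr). Replicate numbers are shared between groups, but same-numbered mice did not deviate together throughout, with a correlation over 0.1 for 3 of 5 numbers between shRNA and shRNA+BBR and for 0 or 1 of 5 between the other groups. A fit with a replicate block gave 1747 genes and 4 of the 10 for BBR in Vec, where Lpl had an adjusted p of 0.0515. Lpl, with 52 counts in its lowest library, and Slc27a1, with 55, are the genes most limited by depth.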
